A study of Mus musculus with 4 samples.

Results

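The 9 genes described here encode factors of nonsense-mediated mRNA decay: Upf1, Upf2, Upf3a, Upf3b, Smg1, Smg5, Smg6, Smg8 and Smg9. They were taken by gene name, by a rule that uses no measured value, though the set was proposed with earlier results of these data known, from a table of 48316 gene names, and each was found with an estimate in both groups. The data are polyadenylated RNA from mouse cardiomyocytes, freed from the heart by Langendorff perfusion, on a C57BL x FVB background. The 4 libraries form 2 groups of 2. The control carries the genotype labelled MHC, a name the labels do not spell out, and the other group, labelled Rbfox2_OE with the genotype RbFox2, overexpresses the RNA-binding splicing regulator RBFOX2, which the series title describes as its non-muscle isoform. Both groups received doxycycline in the diet for 3 days. Age and sex, and whether a library is 1 mouse or a pool, were not given in the sources used here, nor were the promoter that drives the transgene and the RBFOX2 level in single cells.

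Nonsense-mediated decay removes messenger RNAs on which translation ends too early. The helicase UPF1 joins the terminating ribosome, UPF2 and the UPF3 proteins link it to an exon junction complex left downstream by splicing, and the SMG1 kinase, held in check by SMG8 and SMG9, phosphorylates UPF1. Phosphorylated UPF1 is then bound by SMG5, which brings in deadenylation and decapping enzymes, and by SMG6, which cuts the RNA near the stop codon. Several of these factors have messenger RNAs that are themselves decay targets, so that their levels can be tuned by the pathway. Splicing regulators of the RBFOX family bind the RNA word UGCAUG, mostly in introns beside alternative exons, and some of the exons they control decide whether a transcript carries a premature stop codon.

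The RBFOX word was looked for in the coding part of the messages. For each member the longest coding sequence in GENCODE M21 was searched on the sense strand for TGCATG, the DNA form of the word. Of the 9 members, 3 held it, at 4 sites in all. The sites are printed with 10 bases on either side, the word in capitals, 5′ to 3′ on the strand of the gene, in GRCm38 coordinates of the word. Each lies in a coding exon: exon 14 of Upf1 (chr8:70337516-70337521, minus strand), exons 8 and 9 of Upf2 (chr2:5988402-5988407 and chr2:6003594-6003599, plus strand) and exon 55 of Smg1 (chr7:118143296-118143301, minus strand).
Upf1 exon 14: tgagcctgagTGCATGgtgcctgtag
Upf2 exon 8: catggattttTGCATGaacatgaaca
Upf2 exon 9: cttgcaccccTGCATGtctgatgtag
Smg1 exon 55: aagaagaaacTGCATGctctcagtca
The members held 0.122 such words per kilobase of coding sequence, against 0.236 per kilobase over 11088 tested coding genes, of which 30.5% held at least 1. For length, the comparison took all annotated coding genes, expressed here or not, whose coding length lay within 10% of the member's. The share with the word was 52.8% for Upf1, 56.6% for Upf2 and, of only 43 genes, 90.7% for Smg1. It was 60.5% for Smg6, 49.9% for Smg5 and 48.0% for Smg8, where the word was not found, and between 25.9% and 31.7% for Upf3a, Upf3b and Smg9. A match describes the letters only, and introns and untranslated regions were not searched.

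The deposited table gives 1 value per gene and group, in FPKM (fragments scaled by transcript length and by the mapped fragments of the library), with a lower and an upper bound whose level is not stated. It holds no value per library. No test between the groups could therefore be made, and every value below is the authors' pooled value, with the authors' bounds in parentheses and the control named first. Ratios are given on the scale of log2(FPKM + 1), Rbfox2 OE over control, so that positive values are higher in Rbfox2 OE, and a range beside a ratio comes from the lowest bound of one group set against the highest of the other. The overexpressed gene Rbfox2 stood at 14.7 FPKM in control cells and 19.9 times as high, at 293 FPKM, in overexpressing cells. Of the 11 cardiomyocyte markers, 10 had an estimate in both groups, and Myh6 was listed at 0 in both because the authors' status marked it as having too much data to estimate. How deeply each library was sequenced is unknown.

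The pooled values of the decay factors covered a similar range in both groups. In the control they ranged from 4.44 FPKM (Smg8) to 21.6 FPKM (Smg5), with a median of 6.72 FPKM, and in Rbfox2 OE from 4.47 FPKM (Smg6) to 24.2 FPKM (Smg5), with a median of 7.61 FPKM. Summed over the 9 genes the level was 77.0 FPKM in control cells and 79.0 FPKM in overexpressing cells. Log2 ratios ran from -0.50 for Smg6 to 0.69 for Smg8, 5 above 0 and 4 below it, with a median of 0.10. Over the 11697 genes whose mean reached 1 FPKM, called all genes below, the median was -0.06.

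None of the 9 differed by 2-fold or more in either direction, where 17.0% of all genes did. At 1.5-fold on the same log2(FPKM + 1) scale, 1 member was higher, Smg8, and 0 were lower, against 16.6% and 22.1% of all genes. Without the pseudocount Smg6 was 1.505-fold lower, just past that limit. The authors' bounds overlapped between the groups for each of the 9 members, while they were separate for 6.67% of all genes on the higher side and 9.33% on the lower. That order turned under rescaling without mitochondrial genes and the 10 most abundant genes, from 780 genes higher and 1091 lower to 1034 higher and 825 lower. Among the 4908 genes whose mean lay within the members' own range, 4.79 to 22.9 FPKM, the bounds were separate for 16.0%. With 9 genes, a share this size would be 1 or 2 members, so the count is not far from the background. For 8 of the 9 the log2 ratio also lay between the quartiles of all genes, -0.52 and 0.38, and Smg8 was the exception.

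**Figure D1:**
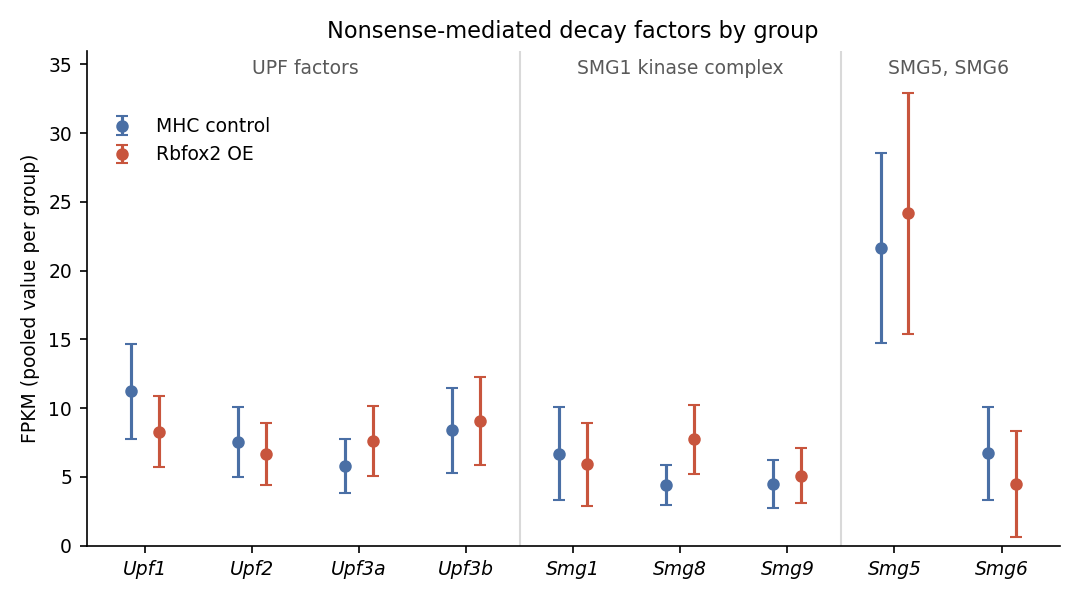
Pooled FPKM (vertical axis) of the 9 decay factors in the MHC control (blue) and Rbfox2 OE (red); points are the authors' values and bars the authors' lower and upper bounds, each from 2 libraries. The bars of the groups overlap for every gene, and Smg5 stands above the other members in both groups.

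The UPF factors form the surveillance core, and Upf1, the helicase on which the pathway turns, was lower in Rbfox2 OE. It stood at 11.2 FPKM (7.79 to 14.7) in control cells and 8.30 FPKM (5.74 to 10.9) in overexpressing cells, a log2 ratio of -0.39 with a range of -1.22 to 0.43. The bounds share a stretch of 3.07 FPKM, and 30.8% of all genes had a lower ratio. Upf2, the bridge between UPF1 and the UPF3 proteins, was 7.55 FPKM (5.01 to 10.1) in control cells and 6.67 FPKM (4.42 to 8.91) in overexpressing cells, a log2 ratio of -0.16. Both Upf2 values lay inside the bounds of the other group, while the control value of Upf1 lay above the upper bound of Rbfox2 OE.

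The paralogues Upf3a and Upf3b, whose proteins compete for UPF2, had ratios on the other side of 0. Upf3a was at 5.82 FPKM (3.84 to 7.79) in control cells and 7.61 FPKM (5.09 to 10.1) in overexpressing cells, a log2 ratio of 0.34. Upf3b, the X-linked copy and the stronger activator of decay, was at 8.40 FPKM (5.30 to 11.5) and 9.07 FPKM (5.85 to 12.3), a log2 ratio of 0.10. Upf3a therefore stood at 0.692 times the Upf3b level in the control and at 0.839 times in Rbfox2 OE, and in both groups the bounds of the pair overlapped. Of the 50-base sequences of their annotated transcripts, 0.84% for Upf3a and 1.0% for Upf3b were found in transcripts of other genes, and neither was among the leading sharers of the other. The 4 UPF messages together summed to 33.0 FPKM in control cells and 31.6 FPKM in overexpressing cells.

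Smg8 was the member with the largest difference. As a regulatory subunit of the SMG1 kinase complex, its protein restrains the kinase, and its message stood at 4.44 FPKM (2.98 to 5.90) in control cells and 7.75 FPKM (5.25 to 10.3) in overexpressing cells. The value in Rbfox2 OE lay above the control's upper bound, and the bounds themselves shared 0.654 FPKM, from the lower bound of Rbfox2 OE to the upper bound of the control. The plain ratio was 1.75 and the log2 ratio 0.69, with a range of -0.14 to 1.5, and 86.7% of all genes had a lower ratio. Smg8 is a compact gene of 9.04 kb with 4 exons on chromosome 11 (87077732 to 87086774, minus strand), and it overlaps Gm9378 on the opposite strand. Fragments assigned to that gene could not be told apart from its own if strand was not used in counting, which the sources used here do not state.

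Its partners differed less. Smg9, the other regulatory subunit, was at 4.50 FPKM (2.76 to 6.24) in control cells and 5.09 FPKM (3.09 to 7.09) in overexpressing cells, a log2 ratio of 0.15. Smg1, the kinase, was at 6.70 FPKM (3.32 to 10.1) and 5.92 FPKM (2.91 to 8.92), a log2 ratio of -0.16. In the control Smg8 stood at 0.662 times the level of Smg1 and in Rbfox2 OE at 1.31 times, so the order of kinase and inhibitor was exchanged. In both groups, however, the difference between these genes was within their bounds. Smg8 and Smg9 were level in the control, with a ratio of 0.987, and stood at 1.52 in Rbfox2 OE.

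Smg5 and Smg6 act on phosphorylated UPF1 and lead the message to degradation. Smg5, which works through decapping and deadenylation, was at 21.6 FPKM (14.7 to 28.5) in control cells and 24.2 FPKM (15.4 to 32.9) in overexpressing cells, a log2 ratio of 0.15. Smg6, the endonuclease, was at 6.72 FPKM (3.32 to 10.1) and 4.47 FPKM (0.616 to 8.32), a log2 ratio of -0.50, the lowest of the 9. The Smg5 message stood at 3.22 times the Smg6 level in the control and at 5.41 times in Rbfox2 OE. Smg6 has the least certain value: its bounds reach 86.2% of the value to either side in Rbfox2 OE, where the median over all genes was 39.3%. The authors' locus for Smg6 is shared with 9 other genes, among them Srr and Tsr1, and 6 annotated genes overlap it on the opposite strand.

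**Figure D2:**
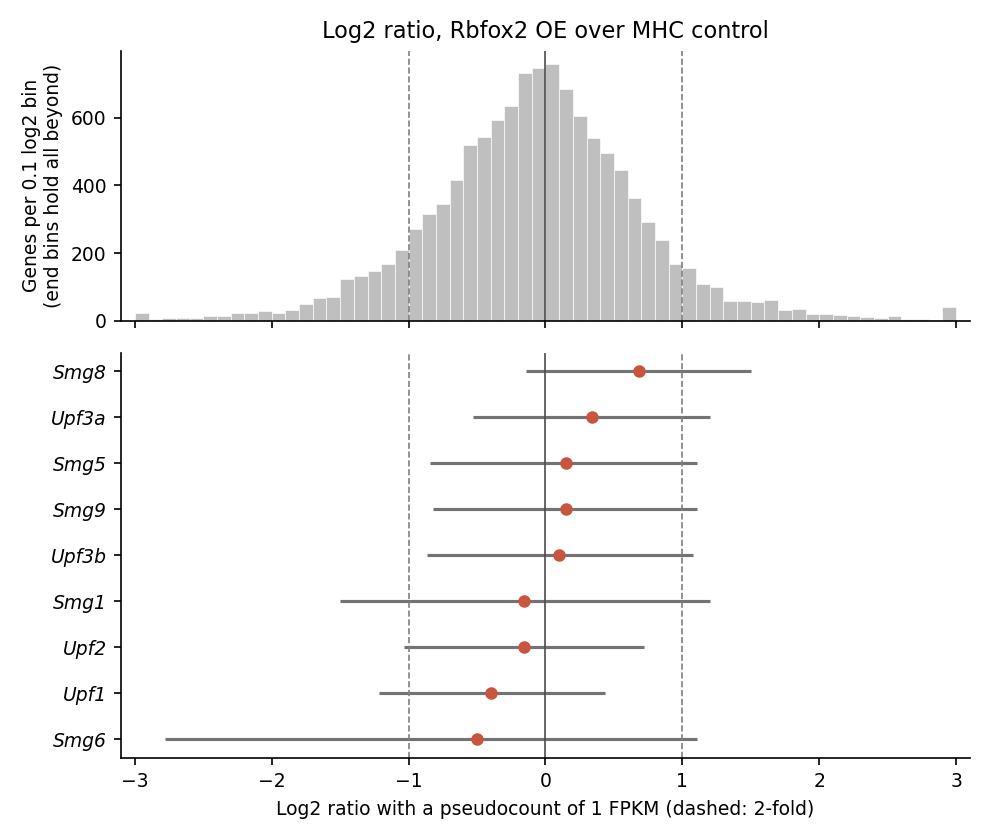
Upper panel, the number of genes (vertical axis) by log2 ratio of Rbfox2 OE over control (horizontal axis, pseudocount 1 FPKM) for the 11697 genes whose mean reached 1 FPKM. Lower panel, the 9 decay factors on the same axis, with lines from the lowest to the highest ratio the authors' bounds allow; each line crosses 0 and each point lies inside the dashed 2-fold marks.

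Ordered by level, Smg5 came first in both groups, with bounds separate from those of the next gene. In the control the next gene was Upf1, where Smg5 stood 1.93 times as high and the separation was narrow. The lower bound of Smg5 was 14.73 FPKM there and the upper bound of Upf1 14.66 FPKM. In Rbfox2 OE the next gene was Upf3b, and Smg5 stood 2.67 times as high, with bounds of 15.4 against 12.3 FPKM. All other neighbours in either order had overlapping bounds. The control order after Smg5 was Upf1, Upf3b, Upf2, Smg6, Smg1, Upf3a, Smg9 and Smg8, and that of Rbfox2 OE was Upf3b, Upf1, Smg8, Upf3a, Upf2, Smg1, Smg9 and Smg6. Smg8 went from the ninth place to the fourth and Smg6 from the fifth to the ninth, moves among genes that the bounds do not separate.

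How large a difference the bounds could have shown depends on the gene. With bounds of the relative width given, the smallest rise that separates them is 1.89-fold for Upf1, 1.96-fold for Smg8, 2.003-fold for Upf3a, 2.02-fold for Upf2, 2.07-fold for Smg5, 2.12-fold for Upf3b and 2.28-fold for Smg9. It is 3.06-fold for Smg1 and 10.9-fold for Smg6, and the smallest fall is 3.05-fold for Smg1 and 3.77-fold for Smg6. Differences under about these sizes were not detectable here and are not shown to be absent. The scaling shifts all members together. Rescaling without mitochondrial genes and the 10 most abundant genes raises Rbfox2 OE by 0.16 on the log2 scale and moves the median gene from -0.06 to 0.07. It leaves 5 members above 0 and brings Upf2 and Smg1 to -0.02 each. Smg8 then stands at 0.83, with a lower bound of 5.84 FPKM in Rbfox2 OE against the control's upper bound of 5.90 FPKM.

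The members' genes differ widely in length along the chromosome, and their ratios were ordered with it. The span is 239 kb for Smg6 (chromosome 11, 74925823 to 75164448, plus strand), 112 kb for Smg1 (chromosome 7, 118131308 to 118243670, minus strand) and 105 kb for Upf2 (chromosome 2, 5951469 to 6056703, plus strand). All 3 had a lower pooled value in Rbfox2 OE, with overlapping bounds. Under rescaling, Upf2 and Smg1 came to -0.02 each. The remaining 6 span between 9.04 kb and 26.1 kb, and 5 of them were higher, the exception being Upf1 (21.8 kb, chromosome 8, 70331525 to 70353278, minus strand). Spearman's rho between span and log2 ratio was -0.72 over the 9 genes, which share their libraries, and -0.39 over the 7 left without Smg6 and Smg8. With the length of the messenger RNA in place of span, rho was -0.70 over the 9.

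The same direction ran through the protein-coding genes at large. Over 11093 of them rho was -0.15 with span and -0.05 with messenger RNA length. Median log2 ratios went from 0.02 for the 2648 genes of up to 10 kb to -0.21 for the 966 genes between 100 and 200 kb and -0.56 for the 497 longer ones. Of genes over 100 kb, 63.9% were lower, beside 3 of 3 members, and of genes up to 30 kb, 49.4% were higher, beside 5 of 6 members. The values of the long members sat close to the medians of their own span: Smg6 differed by 0.06, Upf2 and Smg1 each by 0.05. Their ranges are far wider than that, -2.78 to 1.11 for Smg6, -1.03 to 0.72 for Upf2 and -1.50 to 1.20 for Smg1. The closeness is therefore not established. Smg8 stood 0.66 above the median of its class, Upf3a 0.36 above and Upf1 at -0.32 from it. The limits of the span classes were set after values were seen, and the source of this order was not tested.

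**Figure D3:**
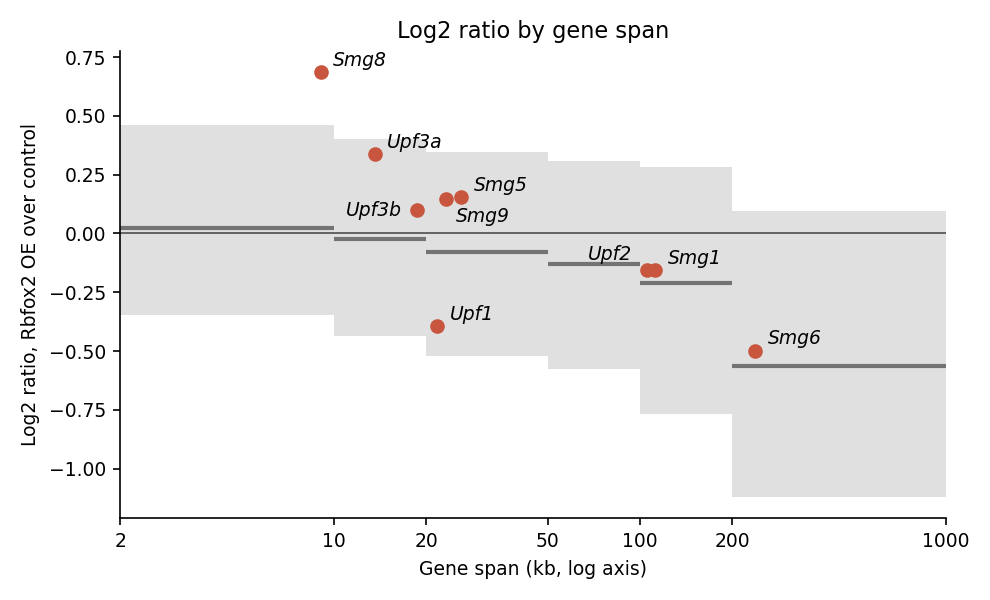
Log2 ratio of Rbfox2 OE over control (vertical axis) against gene span in kb (horizontal log axis), drawn without the members' bounds. Grey bands and lines give the quartiles and median of all tested protein-coding genes in 6 span classes, from 0.02 in the shortest to -0.56 in the longest, and red points are the 9 decay factors, with Smg8 above and Smg6, Smg1 and Upf2 near the medians of their classes.

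The annotation adds what a gene-level value cannot separate. GENCODE M21 lists 10 transcripts for Smg1, 9 for Smg5, 7 for Smg9, 6 for Smg6, 3 each for Upf2, Upf3a and Upf3b, and 2 each for Upf1 and Smg8. Of these, 1 transcript each of Smg1, Smg5 and Smg6 is annotated as a target of nonsense-mediated decay, and 5 of Smg1, 5 of Smg5, 4 of Smg9, 2 of Upf3a and 1 of Smg6 as retained introns. The FPKM of a gene adds all of its isoforms, so a shift between productive and decay-prone isoforms was not tested. Upf2, Upf3a (chromosome 8, 13785615 to 13799193, plus strand), Upf3b (chromosome X, 37091678 to 37110322, minus strand), Smg5 (chromosome 3, 88336260 to 88362338, plus strand) and Smg9 (chromosome 7, 24399619 to 24422778, plus strand) overlap no other annotated gene. Upf1 overlaps Cers1 and Gdf1 on the opposite strand, and Smg1 overlaps Gm25683 and Gm45084, 1 of them on the opposite strand. The limit given for Smg8, should strand not have been used in counting, holds for Upf1, Smg1 and Smg6 as well.

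Machinery around the members was compared from 6 lists of genes, 56 of which reached a mean of 1 FPKM. Bounds were separate for 4 of the 56, with 1 higher (the background is 6.67%) and 3 lower (9.33%), and the median log2 ratio was 0.05. Among 6 other decay factors, 0 were 2-fold apart with the pseudocount of 1 FPKM and the list median was -0.21, or 0.09 with a minimum mean of 5 FPKM. With a pseudocount of 0.1 FPKM 1 of them, Nbas, was 2-fold lower. Nbas, a partner of the pathway with a role in transport from the Golgi, was at 4.75 FPKM (3.28 to 6.21) in control cells and 2.03 FPKM (1.35 to 2.72) in overexpressing cells. This gene spans 315 kb. Pnrc2, a decapping adaptor, was at 26.7 and 34.0 FPKM with overlapping bounds.

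Exon junction complex genes, which mark spliced messages for the UPF proteins, showed 0 of 9 with separate bounds and a median of 0.11. The most abundant were Sap18, at 75.0 and 94.1 FPKM, and Acin1, at 31.9 and 54.9 FPKM, both with overlapping bounds. In the list of translation termination and cap binding, 6 of 7 genes passed the minimum, with a median of 0.38, and 1 was 2-fold higher with separate bounds. That gene was Pabpc1, the cytoplasmic poly(A)-binding protein, whose presence near a stop codon is known to restrain decay. It stood at 35.4 FPKM (23.6 to 47.3) in control cells and 83.4 FPKM (56.6 to 110) in overexpressing cells, a log2 ratio of 1.21. Gspt1, the release factor eRF3a, was at 42.7 and 60.5 FPKM with overlapping bounds.

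Enzymes that degrade the tagged message were mixed. Decapping genes had 0 of 9 with separate bounds and a median of 0.05, with Ddx6 at 25.4 and 22.7 FPKM and Edc4 at 9.04 and 9.40 FPKM. Of 12 deadenylation genes 2 had separate bounds, both lower, against 9.33% of all genes on that side, so the count is not far from the background. The list median was 0.16. Cnot10, a subunit of the CCR4-NOT complex, was at 7.88 FPKM (5.40 to 10.4) in control cells and 3.16 FPKM (2.06 to 4.26) in overexpressing cells, a log2 ratio of -1.09 that fell short of 2-fold under rescaling and with a pseudocount of 5 FPKM. Parn, a poly(A)-specific ribonuclease, was at 4.19 FPKM (2.78 to 5.59) and 1.90 FPKM (1.18 to 2.63), a log2 ratio of -0.84. The exosome and Ski list had 14 genes in use, 4 of them higher, where 46.2% of all genes were, and 10 lower. Its median was -0.21, or -0.07 under rescaling, and 0 had separate bounds. Exosc10 was at 19.6 FPKM (12.9 to 26.4) and 9.64 FPKM (5.64 to 13.6). Its log2 ratio of -0.96 passed 2-fold with a pseudocount of 0.1 FPKM. Wdr61 was at 14.3 and 12.5 FPKM, and Exosc6 was listed at 0 in both groups.

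Transcripts on which the pathway is known to act were compared as well. Of the 11 listed, 8 were higher and 3 lower, with a median log2 ratio of 0.75. At 2-fold 5 stood apart, against 17.0% of all genes, 4 of them higher, or 2 with a pseudocount of 5 FPKM. Bounds were separate for 3 higher and 2 lower, against 6.67% and 9.33% of all genes. Snhg5, a noncoding host of small nucleolar RNAs, was at 4.14 FPKM (2.29 to 5.99) in control cells and 27.2 FPKM (18.3 to 36.1) in overexpressing cells. Snhg12, a host of the same kind, was at 11.1 FPKM (5.81 to 16.4) and 35.1 FPKM (21.8 to 48.4). Both stood well above the control's bounds, with log2 ratios of 2.45 and 1.58.

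The stress and growth arrest genes in that list did not share a direction. Gadd45a, a stress-induced growth arrest gene, was at 15.2 FPKM (9.88 to 20.4) in control cells and 33.9 FPKM (23.3 to 44.5) in overexpressing cells. Atf3, a transcription factor of the stress response, was lower, at 89.9 FPKM (54.5 to 125) and 37.4 FPKM (21.5 to 53.3). Gadd45b, the fifth with separate bounds and so past the naming limit of 4, was also lower, at 27.3 FPKM (18.9 to 35.7) and 14.2 FPKM (9.56 to 18.8). The paralogues Gadd45a and Gadd45b thus stood on opposite sides of 0, at log2 ratios of 1.11 and -0.90.

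All 6 hosts of small nucleolar RNAs in the list had a higher pooled value in Rbfox2 OE, where 46.2% of all tested genes did, and their median log2 ratio was 0.98. Bounds were separate for 2 of the hosts, against 6.67% of all genes on the higher side. Direction is not established where bounds overlap, as for Zfas1, at 9.42 FPKM (0 to 20.9) in control cells and 16.6 FPKM (0 to 37.6) in overexpressing cells. The 6 hosts were set apart from the rest of the list after values were seen. Gas5, the best known of them, was at 40.4 FPKM (19.1 to 61.7) and 82.1 FPKM (49.1 to 115), 2-fold apart with overlapping bounds. Each host overlaps between 1 and 10 annotated small nucleolar RNA genes on its own strand, and the share of fragments given to those was not tested. These transcripts are also short genes, of 0.853 to 4.12 kb. Protein-coding genes of up to 10 kb had a median log2 ratio of 0.02 and an upper quartile of 0.46. A part of span in the values of the hosts was not tested.

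**Figure D4:**
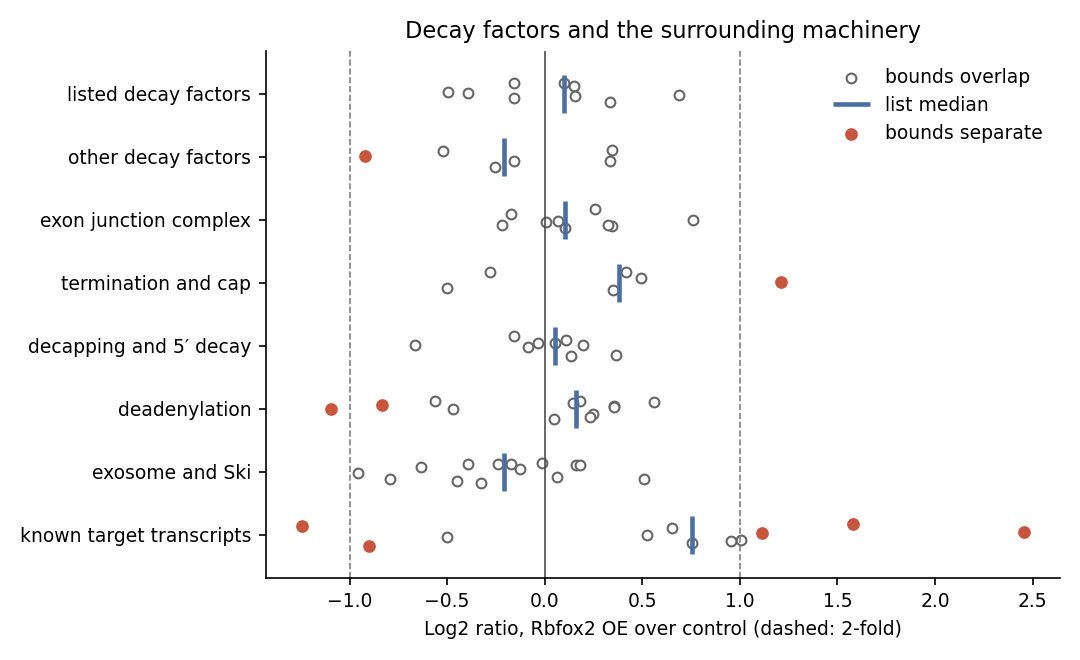
Log2 ratio of Rbfox2 OE over control (horizontal axis, pseudocount 1 FPKM) for the 9 listed decay factors, 6 lists of surrounding machinery and the known target transcripts (rows). Filled points have separate bounds, open points overlapping ones, blue bars are list medians and dashed lines mark 2-fold; separate bounds occur for 0 of the 9 decay factors and for 5 of the 11 targets.

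Markers of other cell types were higher in Rbfox2 OE along with these values. Summed levels went from 209 to 498 FPKM for 7 fibroblast genes, from 168 to 319 FPKM for 6 endothelial genes, from 59.6 to 245 FPKM for 7 macrophage and leukocyte genes, from 95.8 to 179 FPKM for 5 smooth muscle and pericyte genes, and from 56.6 to 295 FPKM for 5 red blood cell genes. Each of these 30 genes was higher, where 46.2% of all genes were, and none was at 0 in either group. Bounds were separate for 5 fibroblast, 3 endothelial, 6 macrophage and leukocyte, 2 smooth muscle and pericyte and 4 red blood cell genes. The share over all genes was 6.67% on the higher side. The cardiomyocyte markers with an estimate summed to 59627 FPKM in control cells and 37727 FPKM in overexpressing cells, 9 of 10 being lower. In bulk RNA, fewer cells of a type and less RNA per cell cannot be told apart. Decay factors are broadly expressed, and the part of these cell types in their values, and in those of the target transcripts, was not tested.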

How the data were processed

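Gene-level FPKM values and their lower and upper bounds, also in FPKM, are the authors' Cuffdiff estimates per the file headers, 1 pooled value per group of 2 libraries. The submitters' processing notes name bcl2fastq 2.17.1.14, Trimmomatic, STAR 2.4.2a, Picard 1.119, HTSeq, DESeq2 and Cuffdiff 2.2.1, and the builds GRCm38 and mm10, without roles. Annotation, normalization mode and use of strand are not given in the sources used here. The status column marks 30 control and 26 Rbfox2 OE genes as HIDATA, listed at 0.

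Rows sharing a gene name (110 names of 48316) were summed. The log2 ratio used a pseudocount of 1 FPKM, which understates low genes, and genes whose mean reached 1 FPKM were compared. A gene counted at 2-fold or 1.5-fold, or where its bounds were separate. With no value per library, no p-value was calculated. Alternatives covered pseudocount, low-value filter, fold, scaling and status. Coordinates, transcripts and coding sequences came from GENCODE M21 (GRCm38), where 99.3% of gene names and all 9 members were matched by identifier. Calculations used Python 3.11.15, pandas 2.3.3 and scipy 1.17.1 and were tested on simulated data.

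All members are named. Of each surrounding list, up to 4 genes with separate bounds are named, largest log2 ratio first, filled up to 2 with the most abundant. Members were matched by name alone, but they and the lists were proposed with earlier results of these data known. The values of 1 listed gene are not reported here.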

Additional observations from a re-analysis of the deposited data

How the results depend on the processing

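No paired analysis was possible because libraries I and II of a group were merged into 1 estimate before deposit, and none could be left out in turn either. The log2 ratios of the 9 decay factors moved by less than the range their bounds allow in all 36 values computed under other pseudocounts and scalings. Those ranges are far wider than the steps such settings make, so this count could hardly have come out otherwise and is no evidence of stability. Smg8, at 0.69 with the main settings, stood at 0.43 with a pseudocount of 5 FPKM and at 0.83 under rescaling. The count of members past 2-fold was 0 under the other pseudocounts, scalings and filters, and at a 1.5-fold threshold it was 1 higher; separate bounds were found for 0 members under rescaling and under both filters. A minimum mean of 5 FPKM left 8 members in use. The background moved more: a pseudocount of 5 FPKM gave 304 genes higher and 559 lower at 2-fold, in place of 815 and 1172, a 1.5-fold threshold 1938 and 2582, and a 4-fold threshold 136 and 154. With a minimum mean of 5 FPKM, which leaves fewer genes, 492 were 2-fold higher and separate bounds put 446 higher. Of the 2-fold genes 59.0% were lower, a share of 53.2% once ratios were centred on the median gene and of 45.9% under rescaling. In the surrounding lists, a pseudocount of 0.1 FPKM gave 1 other decay factor, 2 deadenylation genes and 1 exosome gene 2-fold lower. Under a pseudocount of 5 FPKM, 0 deadenylation genes were 2-fold lower and 2 target transcripts 2-fold higher, and under rescaling 0 deadenylation genes were 2-fold lower. Depth in reads is unknown, and the spread between libraries of a group limits every value here to an unknown extent.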
